A study of Mus musculus with 9 samples.

Results

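Chemokines and secreted cytokines outside the IL-1 family were followed by their transcripts in mouse squamous cell carcinoma (SCC) cells of 3 cell lines that differ in focal adhesion kinase (FAK), the product of Ptk2. The genes were chosen by name, 42 in all, and matched by Ensembl identifier to a table of 19044 identifiers, in which 35 of them were present. Ccl3, Ccl20, Ccl27a, Cxcl12, Cxcl14, Cxcl17 and Csf3 were not analysed here. The SCC cells came from FVB mice with a K14CreER transgene, in which a keratin 14 promoter drives a tamoxifen-dependent Cre recombinase, and floxed FAK alleles, after chemical carcinogenesis of the skin with DMBA and TPA. FAK was deleted in culture with 4-hydroxytamoxifen to give FAK-/- cells, and wild-type FAK (FAK-WT cells) or kinase-deficient FAK (FAK-kd cells) was put back by retrovirus into a FAK-/- clone under hygromycin selection. All 3 cell lines therefore went through the deletion of floxed FAK and share the carcinogen-derived background. Both re-expressing lines derive from a single clone, and no empty-vector control is named in the sources used here. RNA-seq was performed on 3 libraries of each cell line. The study calls them biological replicates, and what separated the libraries of a line is not given in the sources used here. The p-values therefore set differences between lines against the spread between these libraries. With a single line per FAK state, they do not reach beyond these lines.

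Chemokines are small secreted proteins that bind G protein-coupled receptors on leukocytes and steer them towards a tissue, and they are classed as CC, CXC or CX3C by the spacing of their first cysteines. Colony-stimulating factors and interleukins signal through dimeric receptors to set the survival, growth and differentiation of myeloid cells, lymphocytes and epithelial cells. In squamous carcinomas, tumour cells are themselves a source of both, and the mixture they release bears on which leukocytes enter the tumour.

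Ptk2 had 213 to 216 CPM (estimated counts scaled to the TMM-normalized size of each library) in the FAK-WT libraries. It had 155 to 176 CPM in FAK-kd and 19.6 to 23.5 CPM in FAK-/-. Some Ptk2 reads thus remained in FAK-/- cells, and every FAK-kd library lay below every FAK-WT library. FAK-WT and FAK-kd cells therefore differed in the amount of Ptk2 transcript as well as in kinase activity, which the design cannot tell apart. FAK-WT replicate 1 held 779755 counts, against 25304994 to 37264636 in the other 8 libraries, so that 1 count there was worth 1.26 CPM. FAK-/- replicate 3 stood apart from replicates 1 and 2 of its cell line, with a chi-square per gene of 59 and 53.3, against 3.31 between the other two, and FAK-kd replicate 1 from replicates 2 and 3, with 17.1 and 18.9 against 5.27. Of the squamous epithelial markers, 4 of 6 were in the table and only Itga6 was expressed (169 to 297 CPM), whereas Krt5, Krt14 and Cdh1 were at or near 0 in every library, so the squamous label is not borne out by these keratins and E-cadherin. Of 8 fibroblast and endothelial markers, 5 reached 1 CPM, and their sum lay between 1320 and 1950 CPM, mostly Col3a1. Of 10 leukocyte markers, 5 were in the table and Cd68 alone reached 1 CPM. The summed leukocyte markers lay at 0 to 2.21 CPM in FAK-WT, 2.96 to 3.43 CPM in FAK-/- and 1.5 to 2.72 CPM in FAK-kd cells, and Ptprc, which encodes the pan-leukocyte antigen CD45, had at most 0.629 CPM.

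Of the 35 chemokines and cytokines in the table, 15 were expressed at a level that could be compared. At 3 counts or fewer in every library were 16, namely Ccl4, Ccl11, Ccl22, Cxcl2, Cxcl3, Cxcl9, Cxcl11, Cxcl15, Csf2, Il6, Il12a, Il15, Il23a, Il24, Tnf and Tslp. This limit of 3 counts corresponds to 0.0798 to 0.118 CPM in the 8 deep libraries and to 3.78 CPM in FAK-WT replicate 1, and it covers counting error only. Another 4 genes lay just above it, Ccl8, Cxcl1, Cxcl5 and Cxcl16, with at most 7 counts in any library. The other 15 passed edgeR's filterByExpr, which keeps genes with enough counts in the smallest group: Ccl2, Ccl5, Ccl7, Ccl9, Ccl17, Ccl25, Ccl28, Cxcl10, Cx3cl1, Csf1, Il34, Lif, Il11, Clcf1 and Il7. None of the 5 ligands of the neutrophil receptor CXCR2 (Cxcl1, Cxcl2, Cxcl3, Cxcl5 and Cxcl15) and none of Il12a, Il23a, Il24 and Tnf passed it. Among the 7 inflammatory CC chemokines present, 4 passed, and of the 3 CXCR3 ligands only Cxcl10. No difference in the 20 genes that did not pass was detectable at this depth.

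**Figure D1:**
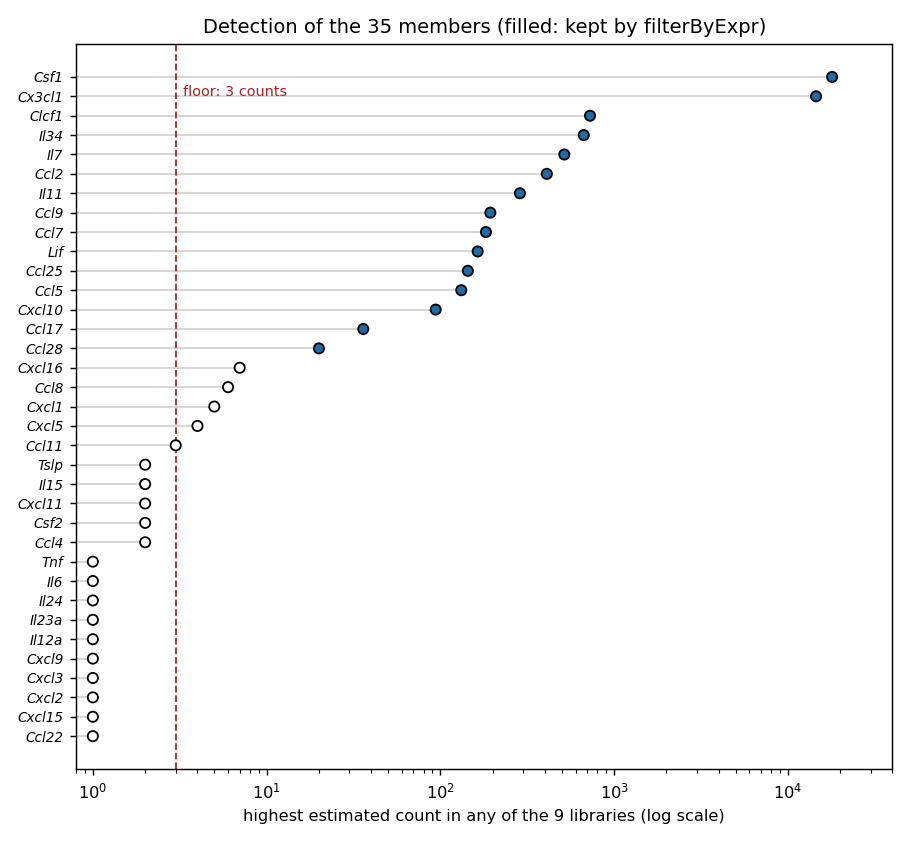
Highest estimated count of each of the 35 chemokine and cytokine genes in any of the 9 libraries, on a log scale; filled points are the 15 genes kept by filterByExpr and the dashed line is the limit of 3 counts. Csf1 and Cx3cl1 lie farthest to the right, while 16 genes are at or left of the line.

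FAK-WT cells were compared with FAK-/- cells to ask which of these genes depend on FAK. They were compared with FAK-kd cells to ask which depend on its kinase activity, although FAK-kd cells also had less Ptk2 transcript. Both comparisons use the same FAK-WT libraries and are not independent of each other. A gene was called where its Benjamini-Hochberg adjusted p did not exceed 0.05 and its log2 fold change was 1 or more in size. Between FAK-WT and FAK-/- cells, 5 of the 35 genes were higher in FAK-WT (Ccl2, Ccl5, Ccl7, Ccl9 and Cxcl10) and 3 lower (Cx3cl1, Ccl17 and Il11), where 2.32% of all identifiers were called higher and 3.06% lower (5.38% in all). Between FAK-WT and FAK-kd cells, 5 were higher (Ccl2, Ccl5, Ccl7, Ccl9 and Cxcl10) and 2 lower (Cx3cl1 and Ccl17), against 2.37% and 2.89% of all identifiers (5.26% in all). Between FAK-kd and FAK-/- cells, 3 were higher in FAK-kd (Ccl7, Ccl9 and Il7) and 1 lower (Il11), against 0.914% and 1.09% (2.01% in all). The median fitted log2 fold change over the 35 genes was 0.53, 0.36 and 0.18 in these comparisons, and 0 in each with the genes at the count limit set to their bound, where the median of all identifiers was 0. The 3 libraries of each line did not overlap in CPM for 12 of the 35 genes between FAK-WT and FAK-/- (8 higher and 4 lower in FAK-WT), against 29.6% of all identifiers. They did not overlap for 7 higher and 6 lower genes between FAK-WT and FAK-kd, against 32.8% of all (13.1% higher and 19.7% lower), and for 4 higher and 2 lower between FAK-kd and FAK-/-, against 25.3%. The 6 lower genes included Cxcl11 (0 counts in every FAK-WT and 1 in every FAK-kd library) and Cxcl16 (at most 7 counts). Neither passed filterByExpr, and separation at such counts is not a measured difference. For any single gene, the exact permutation test of 3 libraries against 3 cannot give a two-sided p below 0.1, which each of these non-overlapping pairs reached.

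**Figure D2:**
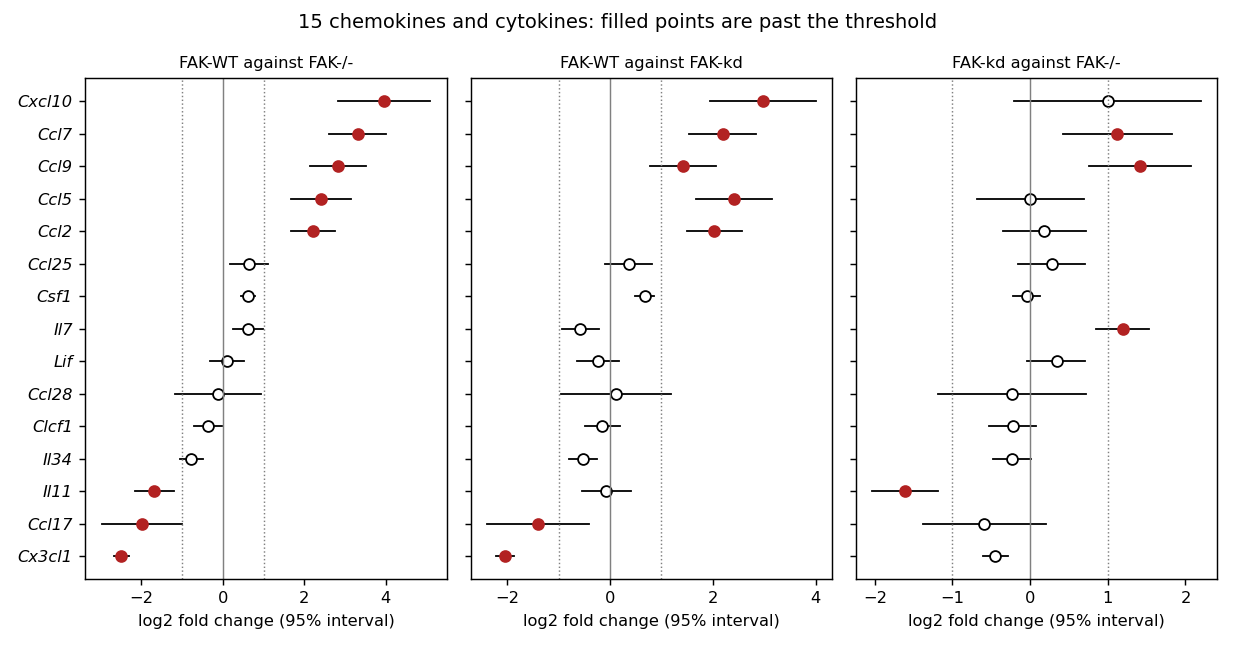
Log2 fold change (horizontal axis) of the 15 measured chemokines and cytokines in the 3 comparisons, with 95% intervals from the edgeR fit; filled points are past the threshold and dotted lines mark a log2 fold change of 1 in either direction. Cxcl10 (3.97 and 2.98) and Cx3cl1 (-2.49 and -2.05) mark the ends of the range in both comparisons with FAK-WT, while most points of FAK-kd against FAK-/- lie near 0.

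The 4 measured inflammatory CC chemokines were all higher in FAK-WT cells than in either other line, by 2.66- to 9.92-fold. Ccl2 encodes the main attractant of monocytes through CCR2. It had 6.29, 10.9 and 11.7 CPM in FAK-WT replicates 1 to 3, 2.94, 2.29 and 1.7 CPM in FAK-/- and 1.77, 3.09 and 3.02 CPM in FAK-kd. Every FAK-WT library lay above every library of the other lines, which overlapped with each other. As in any bulk RNA, fewer cells expressing a gene and less of its RNA per cell cannot be told apart. The log2 fold change was 2.21 (SE 0.26, adjusted p = 1.61e-05) against FAK-/- and 2.03 (SE 0.25, adjusted p = 3.34e-05) against FAK-kd. FAK-kd differed from FAK-/- by 0.18 (95% interval -0.35 to 0.72).

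Ccl7, a ligand of CCR1, CCR2 and CCR3 that also draws monocytes, showed steps between all 3 lines. It had 2.52, 4.76 and 5.28 CPM in FAK-WT, 0.419, 0.355 and 0.64 CPM in FAK-/- and 0.989, 0.779 and 1.35 CPM in FAK-kd. FAK-WT libraries were highest, FAK-kd intermediate and FAK-/- lowest, without overlap. Ccl7 was 9.92-fold higher in FAK-WT than in FAK-/- (log2 3.31, SE 0.33, adjusted p = 3.63e-06) and 4.56-fold higher than in FAK-kd (log2 2.19, SE 0.3, adjusted p = 9.84e-05). The FAK-kd to FAK-/- difference in Ccl7 (log2 1.12, SE 0.33, adjusted p = 0.0487) was close to the threshold. Leaving out any of 7 libraries (FAK-WT replicates 2 and 3, FAK-/- replicates 1 and 2, or any FAK-kd replicate) took it past 0.05, with log2 fold changes of 0.89 to 1.29 and adjusted p of 0.0547 to 0.238. It was called without FAK-WT replicate 1 (adjusted p = 0.0331) and without FAK-/- replicate 3 (adjusted p = 0.0103).

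Ccl5 encodes a chemokine that attracts T cells and monocytes. It had 1.26, 3.51 and 3.4 CPM in FAK-WT, 0.809, 0.513 and 0.48 CPM in FAK-/- and 0.42, 0.749 and 0.644 CPM in FAK-kd. The FAK-WT libraries were the highest, and replicate 1 of them rested on a single count. Ccl5 was 5.34-fold higher in FAK-WT in both comparisons, with a log2 fold change of 2.42 (SE 0.35, adjusted p = 0.000133) against FAK-/- and 2.42 (SE 0.34, adjusted p = 0.00012) against FAK-kd. FAK-kd and FAK-/- cells gave a difference of 0 with an interval of -0.69 to 0.69, so a change of up to about that size in either direction was not detectable.

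Ccl9, a ligand of CCR1 on myeloid cells, again gave separate levels in the 3 lines. The FAK-WT libraries had 11.3, 4.42 and 5.59 CPM, the FAK-/- libraries 0.779, 1.03 and 0.608 CPM and the FAK-kd libraries 2.52, 2.19 and 1.7 CPM. No library of one line overlapped with those of another. The difference was 7.1-fold between FAK-WT and FAK-/- (log2 2.83, SE 0.33, adjusted p = 1.55e-05) and 2.66-fold between FAK-WT and FAK-kd (log2 1.41, SE 0.3, adjusted p = 0.00366). FAK-kd was also above FAK-/- in Ccl9, by 2.67-fold (log2 1.41, SE 0.31, adjusted p = 0.01). Of the 31-base words of Ccl9 transcripts, 3.98% also occur in other genes, whereas Ccl2 and Ccl7 share none. The 3 other inflammatory CC chemokines in the table stayed low, Ccl4 and Ccl11 at the count limit and Ccl8 at 0 to 6 counts.

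Cxcl10 encodes an interferon-induced ligand of CXCR3, the receptor of activated T cells and NK cells, and showed the largest fold change of the 15 measured genes in both comparisons with FAK-WT. Its level was 2.52, 2.34 and 2.71 CPM in FAK-WT, 0.0899, 0.197 and 0.192 CPM in FAK-/- and 0.0899, 0.569 and 0.293 CPM in FAK-kd. The FAK-WT libraries were far above the rest, while the FAK-kd libraries ranged from the FAK-/- level upwards. FAK-WT replicate 1 rested on 2 counts at 1.26 CPM each, so its closeness to the other FAK-WT libraries is no measure of the spread. The FAK-/- values rested on 3 to 6 counts in each library, at or just above the count limit. The size of the fold change against FAK-/- is therefore poorly fixed. Cxcl10 was 15.7-fold higher in FAK-WT than in FAK-/- (log2 3.97, SE 0.53, adjusted p = 6.57e-05) and 7.87-fold higher than in FAK-kd (log2 2.98, SE 0.48, adjusted p = 0.000374). The second value depended on FAK-kd replicate 2, which held 19 of the 32 Cxcl10 counts of its line, and it was 3.7 on the log2 scale without that library. Between FAK-kd and FAK-/- the interval of the Cxcl10 difference, -0.21 to 2.2, left it uncalled (adjusted p = 0.352). Cxcl9 and Cxcl11, the other two CXCR3 ligands, did not exceed 2 counts in any library. Exons of Art3 overlap Cxcl10 on the opposite strand and the sources do not state that strand was used, but Art3 had at most 2 counts in any library.

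**Figure D3:**
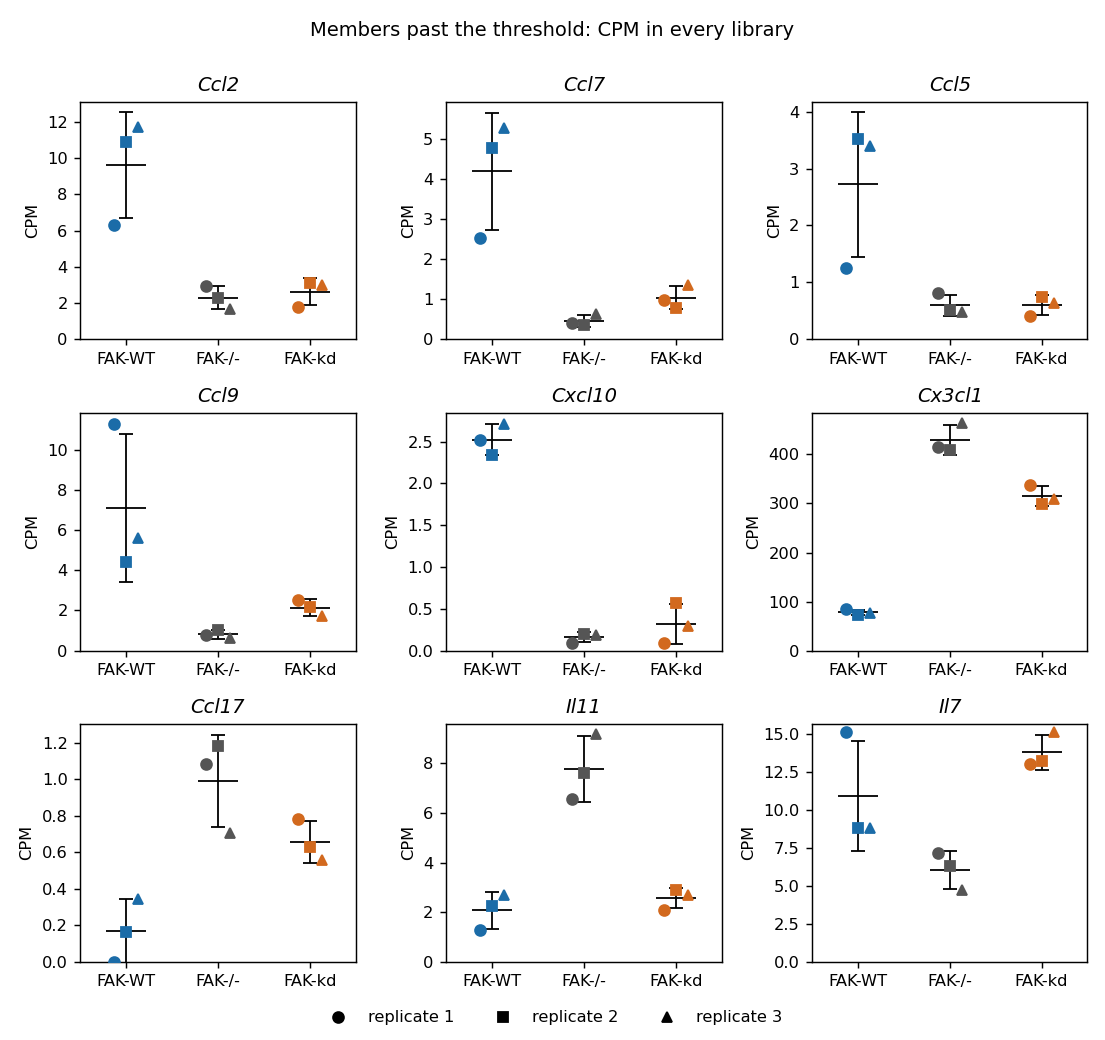
CPM in each library (points, shaped by replicate) of the 9 chemokine and cytokine genes past the threshold in any comparison, with the mean and SD of the 3 libraries of each cell line; each panel has its own linear axis from 0. FAK-WT libraries lie highest for Ccl2, Ccl7, Ccl5, Ccl9 and Cxcl10 and lowest for Cx3cl1 and Ccl17, while Il11 is high in FAK-/- libraries only and Il7 is lowest there.

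Cx3cl1 moved the other way, with the smallest SE of the 9 called genes. It encodes fractalkine, a chemokine made as a membrane-anchored adhesion molecule and released by shedding, whose receptor CX3CR1 marks monocytes and cytotoxic lymphocytes. The FAK-WT libraries had 84.3, 73.3 and 76.8 CPM, the FAK-/- libraries 416, 409 and 465 CPM and the FAK-kd libraries 337, 299 and 309 CPM. FAK-WT was lowest and FAK-/- highest, with no overlap between any lines. In FAK-WT cells Cx3cl1 was 5.63-fold lower compared with FAK-/- (log2 -2.49, SE 0.08, adjusted p = 2.64e-11) and 4.13-fold lower than in FAK-kd (log2 -2.05, SE 0.08, adjusted p = 2e-10). FAK-kd was lower than FAK-/- at an adjusted p of 0.00129, but by a log2 fold change of -0.45, under the minimum of 1.

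Ccl17, the CCR4 ligand of regulatory and Th2 cells, also fell in FAK-WT but at a far lower level, and it is named after its values were seen because its mean stayed below 1 CPM. It had 0, 0.16 and 0.346 CPM in FAK-WT, 1.08, 1.18 and 0.704 CPM in FAK-/- and 0.78, 0.629 and 0.556 CPM in FAK-kd. Every FAK-WT library lay below the other lines, which overlapped each other, and the FAK-WT values rest on 0, 6 and 12 counts. The log2 fold change was -1.99 (SE 0.46, adjusted p = 0.00664) against FAK-/- and -1.40 (SE 0.46, adjusted p = 0.0492) against FAK-kd. Without FAK-WT replicate 2 the first was -1.57 and no longer called (adjusted p = 0.105), and without FAK-WT replicate 3 it was -2.64. The second lost its call without any 1 of the libraries other than FAK-/- replicate 3, with log2 fold changes between -0.97 and -2.05 and adjusted p of 0.0509 to 0.356. The epithelial chemokines Ccl25 and Ccl28 were not called. Ccl25, the gut and thymus ligand of CCR9, had 3.84 ± 0.0732 CPM in FAK-WT and 2.49 ± 0.276 CPM in FAK-/- (SD, n = 3), a log2 difference of 0.64 (95% interval 0.18 to 1.1, adjusted p = 0.0534 from edgeR). FAK-WT replicate 1 rested on 3 Ccl25 counts, so the small SD in FAK-WT is no measure of the spread. Exons of Elavl1, with group means of 12.7 to 13.3 CPM, overlap Ccl25 on the opposite strand, and use of strand is not stated. Of the 31-base words of Ccl25, 2.32% occur in other genes, most of all in Elavl1. Ccl28, a mucosal ligand of CCR10, had group means between 0.387 and 0.681 CPM, and its 95% intervals reached from -1.19 to 1.18 over the 3 comparisons.

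Promoter sequences were read for the genes with the largest fold changes in each direction for which the reference held one, to show the DNA that lies before genes that rose and fell. RefSeq promoters on GRCm38.p6 matched 20 of the 35 genes, in 23 entries, and Ccl2, Ccl5 and Ccl7 were not among them. In the 250 bases before the start site, 4 motifs were searched on both strands: AP-1 (TGANTCA), CRE (TGACGTCA), an ISRE-like element and a kappaB site. Printed 5′ to 3′ on the gene's strand, with motif matches in capitals, are Cxcl10 (minus strand, chr5:92348890-92349139), Ccl9 (minus strand, chr11:83578637-83578886), Cx3cl1 (plus strand, chr8:94771930-94772179) and Ccl17 (plus strand, chr8:94810203-94810452).
Cxcl10: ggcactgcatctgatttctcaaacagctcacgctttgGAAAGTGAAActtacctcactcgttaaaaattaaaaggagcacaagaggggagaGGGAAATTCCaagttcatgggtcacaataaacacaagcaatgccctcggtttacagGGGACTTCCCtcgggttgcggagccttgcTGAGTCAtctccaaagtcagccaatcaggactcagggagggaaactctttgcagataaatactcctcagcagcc
Ccl9: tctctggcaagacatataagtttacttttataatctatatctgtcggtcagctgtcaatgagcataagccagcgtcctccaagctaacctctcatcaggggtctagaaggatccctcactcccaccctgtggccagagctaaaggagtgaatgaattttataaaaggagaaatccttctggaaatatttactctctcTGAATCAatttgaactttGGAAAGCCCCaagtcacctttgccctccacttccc
Cx3cl1: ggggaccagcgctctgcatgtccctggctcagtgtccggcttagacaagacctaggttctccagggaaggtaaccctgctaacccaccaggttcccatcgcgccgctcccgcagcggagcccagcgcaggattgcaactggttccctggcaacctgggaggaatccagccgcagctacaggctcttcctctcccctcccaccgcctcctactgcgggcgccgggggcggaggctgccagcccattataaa
Ccl17: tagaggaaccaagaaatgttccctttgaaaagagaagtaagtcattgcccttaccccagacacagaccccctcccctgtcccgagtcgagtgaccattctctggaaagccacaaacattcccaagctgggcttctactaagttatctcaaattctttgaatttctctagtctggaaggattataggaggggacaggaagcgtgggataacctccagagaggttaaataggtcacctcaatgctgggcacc
The Cxcl10 window held an ISRE-like match starting at -213, kappaB matches at -159 and -103 and an AP-1 match at -74, counted from the start site and without overlap. In the Ccl9 window an AP-1 match started at -53 and a kappaB match at -35. None of the 4 motifs was present in these letters before Cx3cl1 and Ccl17, which says nothing of the factors themselves. For Cx3cl1 the RefSeq start lies 171 bases inside the start of the GENCODE gene, so the window belongs to the RefSeq transcript. Across all 32851 promoters of the table, 6.75% held AP-1, 1.55% CRE, 2.98% the ISRE-like element and 3.9% a kappaB site. Of the 23 entries, 5 held AP-1 (Ccl9, Cxcl10, Il11, Il6 and Lif), none CRE, 1 the ISRE-like element (Cxcl10) and 7 a kappaB site (Ccl9, Csf1, Cxcl1, Cxcl2, Cxcl3, Cxcl10 and Il6). The kappaB entries included Cxcl1, Cxcl2, Cxcl3 and Il6, which were at or near the count limit in all 3 lines. A match is a description of the sequence and no evidence of binding.

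The called chemokine genes lie in 4 neighbourhoods on 3 chromosomes (GRCm38). Ccl2 (chr11:82035571-82037453) and Ccl7 (chr11:82045712-82047525) start 10.1 kb apart, and Ccl5 (chr11:83525778-83530518) and Ccl9 (chr11:83572919-83578636) start 48.1 kb apart, with 1484.8 kb between the starts of Ccl7 and Ccl5. Within 500 kb of Ccl5, none of 18 other genes in the table was called in any comparison, including 10 with at least 10 counts in a library. Around Ccl2 the table held 2 genes outside the list, neither with 10 counts in a library and neither called. Cx3cl1 (chr8:94772009-94782427) and Ccl17 (chr8:94810453-94812036), both lower in FAK-WT, start 38.4 kb apart, with Ccl22, at the count limit, 26.4 kb before Cx3cl1. Of 17 other genes within 500 kb of Cx3cl1, only Nlrc5 was called, and it was higher in FAK-WT (log2 5.3 and 5.07 against FAK-/- and FAK-kd). Cxcl10 (chr5:92346638-92348889) lies between Cxcl9 and Cxcl11, 20.8 and 16.6 kb away, and of 18 other genes within 500 kb only Odaph was called, lower in FAK-WT (log2 -3.08 and -2.7). Over all identifiers in the table, 5.38% and 5.26% were called in these 2 comparisons, so 1 called gene of 17 or 18 is near that share.

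**Figure D4:**
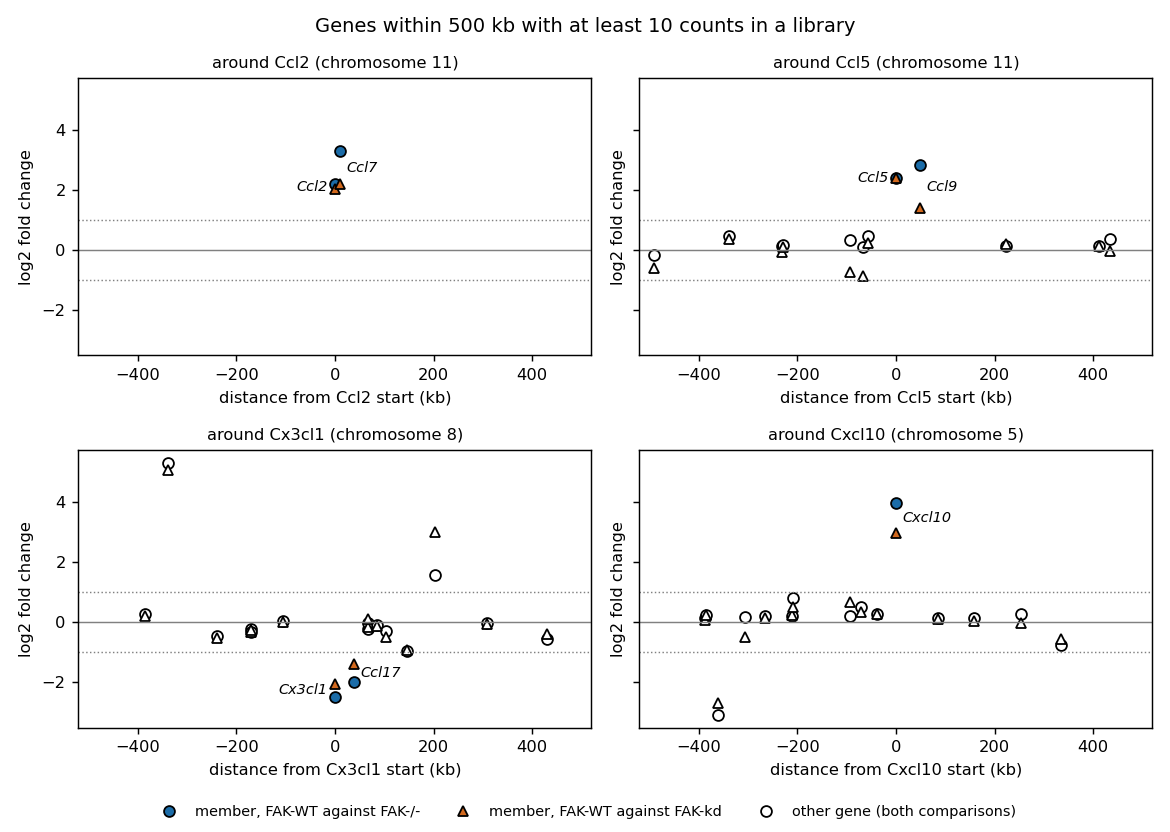
Log2 fold change of FAK-WT against FAK-/- (circles) and against FAK-kd (triangles) for genes with at least 10 counts in a library, by distance in kb from the start of Ccl2, Ccl5, Cx3cl1 or Cxcl10; filled symbols are chemokines of the list and dotted lines mark a log2 fold change of 1. Apart from Nlrc5 near Cx3cl1, Odaph near Cxcl10 and the uncalled Adgrg1 (at 202.7 kb from Cx3cl1, adjusted p = 0.313 and 0.0725), the open symbols stay within the dotted lines.

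Csf1 and Il34, the ligands of the macrophage receptor CSF1R, differed in opposite directions, both by less than the fold-change minimum. Csf1 had 442, 479 and 451 CPM in FAK-WT, 275, 285 and 333 CPM in FAK-/- and 316, 273 and 278 CPM in FAK-kd. All FAK-WT libraries were above all others, and the FAK-/- and FAK-kd libraries overlapped. The Csf1 log2 fold change was 0.62 (SE 0.08, adjusted p = 7.39e-05) against FAK-/- and 0.67 (SE 0.08, adjusted p = 3.9e-05) against FAK-kd. Il34 had a mean of 9.86 ± 2 CPM in FAK-WT, 18.4 ± 2.7 CPM in FAK-/- and 15.6 ± 1.13 CPM in FAK-kd (SD, n = 3). Its log2 fold change was -0.77 (SE 0.13) against FAK-/- and -0.53 (SE 0.13) against FAK-kd, with edgeR adjusted p of 0.000516 and 0.00787. The share of all identifiers with an adjusted p of 0.05 or below and no fold-change minimum was 18.0% and 17.7% in these comparisons and 7.84% between FAK-kd and FAK-/-. Csf2, which encodes GM-CSF, was at the count limit.

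Within the IL-6 family, whose members signal through the shared chain gp130, only Il11 was called. IL-11 acts on stromal and epithelial cells. Il11 had 1.26, 2.26 and 2.71 CPM in FAK-WT, 6.56, 7.61 and 9.19 CPM in FAK-/- and 2.1, 2.88 and 2.69 CPM in FAK-kd. The FAK-/- libraries were above all others, and FAK-WT and FAK-kd libraries overlapped. Il11 was lower than in FAK-/- by 3.2-fold in FAK-WT (log2 -1.68, SE 0.22, adjusted p = 6.11e-05) and by 3.04-fold in FAK-kd (log2 -1.61, SE 0.2, adjusted p = 8.89e-05). Between FAK-WT and FAK-kd the difference was -0.07 (95% interval -0.55 to 0.4). Of the 31-base words of Il11, 5.15% occur in other genes.

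Lif, which encodes leukaemia inhibitory factor, had group means of 3.56 to 4.66 CPM and was not called in any comparison. Its log2 differences were 0.11 (95% interval -0.31 to 0.52) for FAK-WT against FAK-/-, -0.23 (-0.64 to 0.18) against FAK-kd and 0.34 (-0.04 to 0.71) for FAK-kd against FAK-/-. Clcf1, a cytokine of the CNTF receptor, had group means of 14.3 to 18 CPM and log2 differences between -0.37 and -0.15, none called. Its counts were identical in every library to those of another identifier without a symbol, ENSMUSG00000097629, so Clcf1 reads cannot be told apart from it. Il6 did not exceed 1 count in any library.

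Il7, the survival factor of T and B cell precursors, was highest in FAK-kd. It had 15.1, 8.81 and 8.82 CPM in FAK-WT, 7.13, 6.27 and 4.71 CPM in FAK-/- and 13, 13.2 and 15.1 CPM in FAK-kd. The FAK-kd libraries were all above the FAK-/- libraries, and the 2 deep FAK-WT libraries lay between them. Il7 was 2.28-fold higher in FAK-kd than in FAK-/- (log2 1.19, SE 0.16, adjusted p = 0.000196). FAK-WT differed from FAK-/- by 0.61 (adjusted p = 0.0233) and from FAK-kd by -0.58 (adjusted p = 0.0283), both under the fold-change minimum. Il15 and Tslp, the related lymphoid cytokines, were at the count limit.

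Levels of different genes were compared per kilobase of the longest coding transcript, without a test. In FAK-WT cells Csf1 ranked first with 110 ± 4.62 CPM per kb, followed by Cx3cl1 with 23.6 ± 1.7 and Ccl2 with 11.8 ± 3.59 CPM per kb (SD, n = 3). Il34, Ccl7 and Ccl5, at 5.48 ± 1.11, 5.23 ± 1.83 and 5.12 ± 2.38 CPM per kb, did not differ beyond their spread. Cx3cl1 ranked above Csf1 in the other two lines, with 130 ± 9.2 against 71.3 ± 7.42 CPM per kb in FAK-/- and 95 ± 5.94 against 69.2 ± 5.63 CPM per kb in FAK-kd. The order of Csf1 and Cx3cl1 was the same in each line per kilobase of the shortest coding transcript. Cxcl10 moved from 1.86 ± 0.137 CPM per kb in FAK-WT to 0.118 ± 0.0447 CPM per kb in FAK-/-, where Ccl28, at 0.122 ± 0.0477 CPM per kb, did not differ from it beyond the spread. Ccl7 and Ccl5 ranked above Ccl9, which has a transcript of 3006 bases, although Ccl9 had more CPM.

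The receptors of these ligands were looked at as a list of their own, chosen like the others with earlier results known. Among 15 chemokine and atypical chemokine receptors in the table, the calls included Ccr9, higher, and Cxcr4, lower in FAK-WT than in FAK-/-. Cxcr4 alone was lower than in FAK-kd, and Cxcr6 alone was higher in FAK-kd than in FAK-/-. Ccr9 stayed below 1 CPM on average in each line and is named after its values were seen. The median log2 fold changes of the list were -0.55, 0 and -0.06. Over all identifiers, 5.38%, 5.26% and 2.01% were called in these 3 comparisons. Cxcr4, the receptor of CXCL12, had 0, 0.0266 and 0.0577 CPM in FAK-WT (0, 1 and 2 counts), 1.14, 1.18 and 1.12 CPM in FAK-/- and 1.08, 1.74 and 1.35 CPM in FAK-kd. It was at the count limit in FAK-WT only, with adjusted p of 1.02e-05 against FAK-/- and 5.38e-06 against FAK-kd, and its ligand gene Cxcl12 was not analysed here. Cxcr6, the receptor of CXCL16, averaged 6.35 ± 1.22 CPM in FAK-kd and 3.03 ± 0.894 CPM in FAK-/- (SD, n = 3), a log2 difference of 1.06 (adjusted p = 0.0105 from edgeR) that fell to 0.84 without FAK-/- replicate 2 and 0.9 without FAK-kd replicate 3, both under the minimum. Its ligand gene Cxcl16 had 0 to 7 counts.

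Of 20 chains of the cytokine receptors in the table, Il2rg was higher and Lifr and Il11ra1 lower in FAK-WT than in FAK-/-. Il2rg was also higher and Il11ra1 lower than in FAK-kd, while FAK-kd was higher than FAK-/- in Il11ra1 and lower in Il2rg and Lifr. The median log2 fold changes of the list were 0.1, 0.01 and -0.01, and the share of all identifiers called was 5.38%, 5.26% and 2.01%. Il11ra1, the specific chain of the IL-11 receptor, had 0, 0.319 and 0.231 CPM in FAK-WT, 0.809, 0.986 and 0.992 CPM in FAK-/- and 2.49, 2.37 and 2.93 CPM in FAK-kd. The lines did not overlap, and FAK-kd was highest, whereas Il11 itself was highest in FAK-/-. The Il11ra1 log2 fold changes were -1.76 and -3.24 for FAK-WT against FAK-/- and FAK-kd and 1.48 for FAK-kd against FAK-/- (adjusted p = 0.00265, 9.32e-06 and 0.00331). Lifr, the LIF receptor chain, had 2.91, 3.51 and 1.76 CPM in FAK-/- but at most 0.359 CPM in FAK-kd and 0.115 CPM in FAK-WT, with log2 fold changes of -4.98 for FAK-WT and -3.38 for FAK-kd against FAK-/- (adjusted p = 5.69e-06 and 4.63e-05). Lif did not follow it. The FAK-WT to FAK-kd difference in Lifr was -1.6 (adjusted p = 0.0742), and was called without FAK-/- replicate 3 (adjusted p = 0.0342). Il2rg, the common gamma chain used by IL-7 and IL-15, averaged 15.4 ± 7.41 CPM in FAK-WT, 5.6 ± 0.783 CPM in FAK-/- and 2.39 ± 0.555 CPM in FAK-kd (SD, n = 3). Its log2 fold changes were 1.16 and 2.39 for FAK-WT against FAK-/- and FAK-kd (edgeR adjusted p = 0.00249 and 5.17e-06). The first fell to 0.99, under the minimum, without FAK-WT replicate 1 or without FAK-/- replicate 3. Exons of Gm20489 overlap Il2rg on the same strand. Exons of Ccl27a overlap Il11ra1 on the opposite strand, and use of strand is not stated. A part of these overlaps in the values was not tested.

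**Figure D5:**
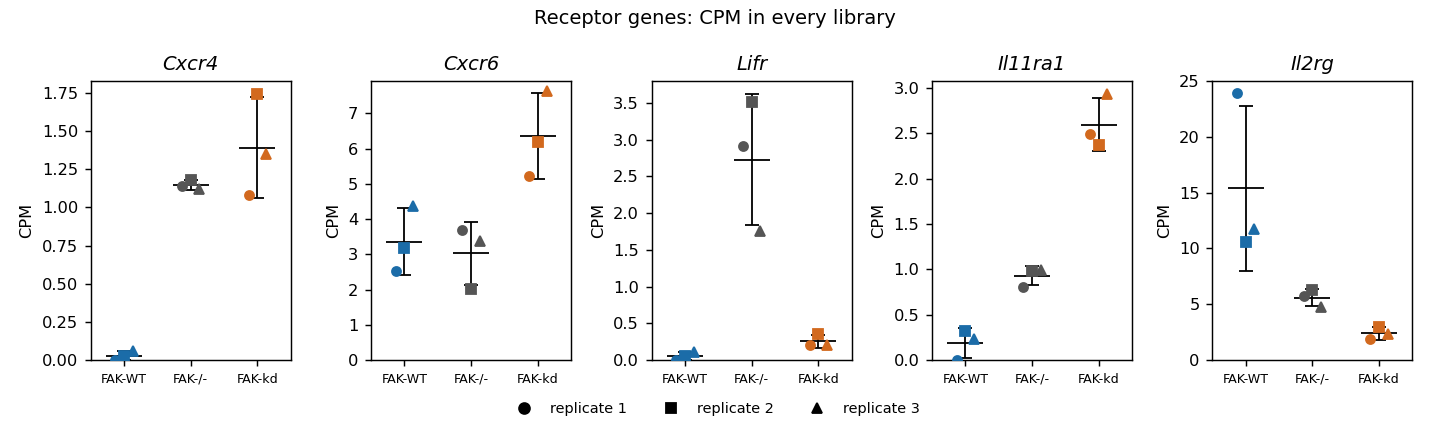
CPM in each library (points, shaped by replicate) of 5 receptor genes of the chemokines and cytokines, with the mean and SD of the 3 libraries of each cell line; each panel has its own linear axis from 0. Cxcr4 and Il11ra1 are lowest in FAK-WT, Lifr is high in FAK-/- only, Cxcr6 is highest in FAK-kd and Il2rg is highest in FAK-WT.

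Regulators of these genes gave no calls. None of 18 transcription factors known to act at chemokine promoters, among them the NF-kappaB, AP-1, C/EBP and IRF genes, passed the threshold in any of the 3 comparisons, with median log2 fold changes of -0.19, 0.1 and -0.12. None of 11 feedback inhibitors and mRNA decay factors did either, with medians of -0.38, -0.18 and -0.19. Over all identifiers 5.38%, 5.26% and 2.01% were called, so 0 calls in lists of 18 and 11 are near that share. Libraries of FAK-WT and FAK-/- did not overlap for 3 higher and 8 lower of the 18, and for 1 higher and 5 lower of the 11. Of all identifiers, 12.1% and 17.5% were so. Between FAK-WT and FAK-kd they were 3 and 6 of 18 and 2 and 5 of 11, against 13.1% and 19.7%. Several differed below the fold-change minimum, of which the following are named after their values were seen. Socs3, an inhibitor of gp130 signalling, had log2 fold changes of -0.98 against FAK-/- and -0.96 against FAK-kd (adjusted p = 0.000121 and 0.000135). Tnfaip3, an inhibitor of NF-kappaB signalling, was at 0.94 and 0.66 (adjusted p = 0.00478 and 0.0364). Jun was at -0.64 against FAK-/- (adjusted p = 0.000554) and -0.3 against FAK-kd (adjusted p = 0.0731).

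Of the 8 fibroblast and endothelial markers, 2 were called higher and 1 lower in FAK-WT than in FAK-/-, and against FAK-kd 1 was called in each direction. Of all identifiers, 2.32% were called higher and 3.06% lower against FAK-/-, and 2.37% and 2.89% against FAK-kd. Cdh5, an endothelial cadherin, was higher in both comparisons (log2 3.42 and 6.04). It had 0 to 2 counts in FAK-kd, 3 to 6 in FAK-/- and 1 in FAK-WT replicate 1. The fibroblast marker Pdgfra was lower in both (log2 -1.44 and -1.11). Dcn, which encodes decorin, was higher in FAK-WT than in FAK-/- (log2 2.24, adjusted p = 0.0426 from edgeR) at no more than 0.506 CPM. The other 5 were not called in either. Among them were Col1a2 (log2 0.8 and -0.49), Col3a1 (log2 0.18 and -0.06) and the endothelial Pecam1 (log2 -0.94 and -0.74). Between FAK-kd and FAK-/-, Col1a2 alone of the 8 was called, higher in FAK-kd (log2 1.06 to 1.68 over 15 alternative settings). Of all identifiers, 0.914% were called higher in that comparison. Without FAK-kd replicate 3, Pdgfra was at -0.98 against FAK-kd and under the fold-change minimum. Their part in the chemokine differences was not tested. The summed leukocyte markers, of which Cd68 alone reached 1 CPM, lay at 0 to 2.21 CPM in FAK-WT, 2.96 to 3.43 CPM in FAK-/- and 1.5 to 2.72 CPM in FAK-kd. A part of leukocytes in the chemokine differences was not tested either. FAK-WT replicate 1 supplied 1 to 9 counts to each of Ccl2, Ccl5, Ccl7, Ccl9 and Cxcl10, and these 5 genes were called higher in both comparisons without it too.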

How the data were processed

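RNA was extracted from cultured cells and sequenced as paired ends (TruSeq RNA Library Prep Kit v2). Per the labels and the paper's methods, the authors pseudoaligned reads with kallisto 0.43.1, summarized transcripts to genes with tximport and removed genes at zero; the release of the transcriptome is not given in the sources used here. The deposited values are these estimated counts as whole numbers, not scaled to depth, for 19044 identifiers, of which 18856 were named from GENCODE M21 (GRCm38).

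Counts were normalized with TMM and tested with edgeR 4.0.16 (glmQLFit and glmQLFTest, R 4.3.3) over all identifiers in 1 fit of the 9 libraries, with cell line as the only factor. SE is the log2 fold change divided by the square root of F. p-values were adjusted over all identifiers (Benjamini-Hochberg). The script was tested on simulated data, with changes placed only in genes of higher average counts than Cxcl10, Ccl5 and Ccl17. That test does not cover calls at such low counts. Shared 31-base words were counted in GENCODE transcripts, as a guide to ambiguous reads. Values in every library are given for genes past the threshold with a mean of at least 1 CPM in a line, and for Ccl5 and Cxcl10. The genes and lists were chosen with earlier results of these data known, and no set test was run. Alternatives were DESeq2 1.42.0, other scalings, filterByExpr, pairwise fits, a replicate block, other fold limits and leaving out each library. Results for 2 genes of the receptor and regulator lists are not reported here.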

Additional observations from a re-analysis of the deposited data

How the results depend on the processing

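The 15 measured chemokines and cytokines were refitted in the 3 comparisons under 15 alternatives, which gave 675 log2 fold changes. Direction and side of the threshold were kept in 638 of them, 24 lost their call and 13 changed sign. The 24 belonged to Ccl7 (FAK-kd against FAK-/-) or Ccl17, and the 13 were uncalled in every setting. With each library left out in turn, Ccl28 ranged from -0.43 to 0.28 (FAK-WT against FAK-/-), -0.13 to 0.52 (FAK-WT against FAK-kd) and -0.52 to 0.03 (FAK-kd against FAK-/-), and Il11 from -0.22 to 0.03 (FAK-WT against FAK-kd). For FAK-kd against FAK-/-, the ranges were -0.19 to 0.28 for Ccl5, 0 to 0.4 for Ccl2, -0.37 to 0.01 for Clcf1 and -0.12 to 0.05 for Csf1. Ccl28 was at 0.07 (FAK-WT against FAK-/-) with a replicate block, and Ccl5 at 0 (FAK-kd against FAK-/-) with only these cell lines in the fit. For genes lower in FAK-WT than in FAK-kd, the count of 2 fell to 1 with DESeq2, with DESeq2 size factors, with library-size scaling and with glmTreat against a log2 fold change of 1, and was 4 with no fold-change minimum, since genes under it then count. It lay between 1 and 2 when each library was left out in turn. For FAK-kd against FAK-/-, glmTreat called 0 genes higher, 0 lower and 0 in all, against 3, 1 and 4, and 2 were lower with no fold-change minimum. For the Ccl7 difference between FAK-kd and FAK-/-, DESeq2 gave 1.12 (adjusted p = 0.1). Per kilobase of the shortest coding transcript, 7 of 15 genes kept their rank in FAK-WT cells. The cause of these shifts was otherwise not tested.

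With a replicate block, the genes lower in FAK-WT than in FAK-kd numbered 1, as Ccl17 was at -1.3 (adjusted p = 0.115). The replicate numbers gave no sign of pairing. Same-numbered libraries deviated with a mean r of -0.0184 over 9 pairs (-0.0769 to 0.0474), against 0.0094 over 18 pairs with different numbers. Of 9 libraries, 2 correlated best with their own number. Deviations were taken from each line's own mean, so these 2 mean r values are tied to each other. The check cannot show that the libraries were prepared without matching. FAK-WT replicate 1, with 779755 counts, limits what its values can show, and leaving it out ended the call of Ccl17 against FAK-kd and no other call of the 15 genes.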
